A study of Arabidopsis thaliana with 12 samples.

Results

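The genes described here are 10 heat shock protein loci of Arabidopsis thaliana, chosen by locus identifier from a table of 27827 loci and compared between 4 genotypes. They are HSP17.4 (AT3G46230), HSP17.6II (AT5G12020), HSP17.6A (AT5G12030), HSP18.2 (AT5G59720), HSP21 (AT4G27670), HSP22 (AT4G10250), HSP23.6 (AT4G25200), HSP70 (AT3G12580), HSP90.1 (AT5G52640) and HSP101 (AT1G74310). All 10 were measured on all 12 arrays. Col-0 is the wild type and PMEIox is a Col-0 transformant that overexpresses a pectin methylesterase inhibitor. The cnu1 and cnu2 seedlings are suppressor mutants of PMEIox that still carry the transgene, so PMEIox is their direct control. A mutation in the brassinosteroid receptor gene BRI1 (AT4G39400) is known for cnu1, and one in the receptor-like protein gene RLP44 (AT3G49750) for cnu2. The promoter of the transgene and the number of independent transformants are not given in the sources used here. Every seedling was kept cold for 48 h, given white light for 6 h and grown in darkness for 4 days at 22 °C, with no heat treatment named in the labels. Each genotype had 3 arrays, A, B and C, of biological replicates harvested in successive weeks.

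Heat shock proteins are molecular chaperones. Small heat shock proteins bind unfolding proteins and hold them in a state from which HSP70 and HSP101 can recover them, while HSP90 assists the folding and activation of signalling proteins. Most of these genes are barely transcribed in unstressed vegetative tissue and are switched on by heat shock factors, which bind heat shock elements in their promoters. Some small heat shock proteins and HSP101 are also made during seed maturation without any heat, where the seed factor HSFA9 takes part.

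Values are log2 intensities, and a difference of 1 is a 2-fold change. Each difference subtracts the genotype named second, with the standard error (SE) of the limma fit across all loci, and a locus was said to rise or fall at an adjusted p under 0.05. The transgene PMEI5 (AT2G31430) lay between 12.53 and 12.69 on the 9 arrays of PMEIox, cnu1 and cnu2, and at 8.19, 5.05 and 4.49 on Col-0 arrays A, B and C. Array A of Col-0 therefore stood apart for the transgene. Each result below that rests on Col-0 is also given without it where the call changed. Etiolated seedling transcripts were abundant, with PORA above 92.9% and PORB above 99.3% of loci, while the light-harvesting gene LHCB1.1 lay above 11.6%. The photosynthetic gene RBCS1A, a marker of light-grown tissue, was bright on all arrays, at 13.16 to 13.34. The arrays were of whole seedlings, so fewer cells of a type and less RNA per cell cannot be told apart.

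HSP17.4 was the member that differed most between PMEIox and the other genotypes. It encodes a class I small heat shock protein of the cytosol. On Col-0 arrays A, B and C it read 4.51, 4.33 and 4.14, and on the PMEIox arrays 5.01, 5.20 and 5.24. The cnu1 arrays read 4.43, 4.54 and 4.29 and the cnu2 arrays 4.28, 4.26 and 4.58. All 3 PMEIox values lay above the other 9, and the values of Col-0, cnu1 and cnu2 overlapped. HSP17.4 rose in PMEIox against Col-0 by 0.83 ± 0.13 (SE, adjusted p = 0.00255), which is 1.77-fold. It was lower in cnu1 than in PMEIox by a log2 difference of -0.73 ± 0.13 (SE, adjusted p = 0.00442) and lower in cnu2 by -0.78 ± 0.13 (SE, adjusted p = 0.00603). These 3 comparisons share the PMEIox arrays. Against Col-0 it differed by 0.09 in cnu1 (95% interval -0.18 to 0.37) and by 0.05 in cnu2 (95% interval -0.23 to 0.32). Without Col-0 array A the rise in PMEIox was 0.92 (adjusted p = 0.00359). Each of the 3 calls stayed past the threshold in 6 of 6 fits that left out an array of the genotypes compared, with an adjusted p of at most 0.0344. A minimum fold of 2 would remove all 3 calls. The mean of HSP17.4 over all arrays exceeded that of 38.5% of the loci, and the table has no detection calls. HSP17.4 was therefore not tested in the alternative that left out the lowest 40% of loci.

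HSP18.2 encodes another cytosolic class I protein, and its values stayed low in every genotype. They ran from 2.17 to 2.68 in Col-0, from 2.17 to 2.35 in PMEIox, from 2.08 to 2.66 in cnu1 and from 2.31 to 2.73 in cnu2. The groups overlapped throughout, and the mean over all arrays exceeded that of 8.91% of the loci. The table has no detection calls, so a level this low on the arrays is not shown to be above background.

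HSP17.6II and HSP17.6A encode class II small heat shock proteins of the cytosol and are neighbours on chromosome 5. HSP17.6II read 2.94, 2.93 and 2.66 in Col-0 and 3.18, 3.20 and 2.72 in PMEIox, and it ran from 2.76 to 3.34 in the suppressors. HSP17.6A read 2.71, 3.43 and 2.34 in Col-0 and 2.85, 3.80 and 2.48 in PMEIox. In both genotypes array B was the highest for HSP17.6A, while in cnu2 array B was the lowest at 2.03. No group of HSP17.6II or HSP17.6A stood clear of another. HSP17.6A differed by 0.21 between PMEIox and Col-0 with a 95% interval from -0.55 to 0.98, so a change as large as that of HSP17.4 could not be told from none. For HSP17.6II the interval of the same difference ran from -0.20 to 0.57. Over the 12 arrays the neighbours correlated at r = 0.40, a description of arrays that share genotypes. Whether probes are shared between these related genes is not given in the sources used here.

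The organelle members HSP21, HSP22 and HSP23.6 are small heat shock proteins of plastids, the endoplasmic reticulum (ER) and mitochondria. HSP21, which protects the plastid transcription machinery during heat, had group means between 2.16 and 2.41 and lay above 6.87% of the loci. The Col-0 mean was the highest of the 4, and HSP21 differed by -0.25 ± 0.13 (SE, adjusted p = 0.342) in PMEIox against Col-0. HSP22 read 4.41, 3.77 and 3.43 in Col-0, 4.09, 3.48 and 3.81 in PMEIox, 4.45, 3.78 and 4.25 in cnu1 and 4.42, 4.16 and 4.15 in cnu2. The 3 cnu2 values of HSP22 lay above the 3 of PMEIox, with a difference of 0.45 ± 0.24 (SE, adjusted p = 0.381). HSP23.6 read 4.75, 4.20 and 3.59 in Col-0 and 4.04, 4.06 and 5.15 in PMEIox. Its range was narrower in the suppressors, from 3.81 to 4.12 in cnu1 and from 3.76 to 4.03 in cnu2. The cnu2 values of HSP23.6 lay just below those of PMEIox, with a difference of -0.54 ± 0.30 (SE, adjusted p = 0.407). Array C of PMEIox was the highest of the 12 for HSP23.6. The difference of PMEIox from Col-0 was 0.24 and ran from -0.13 to 0.52 as single arrays were left out.

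**Figure D1:**
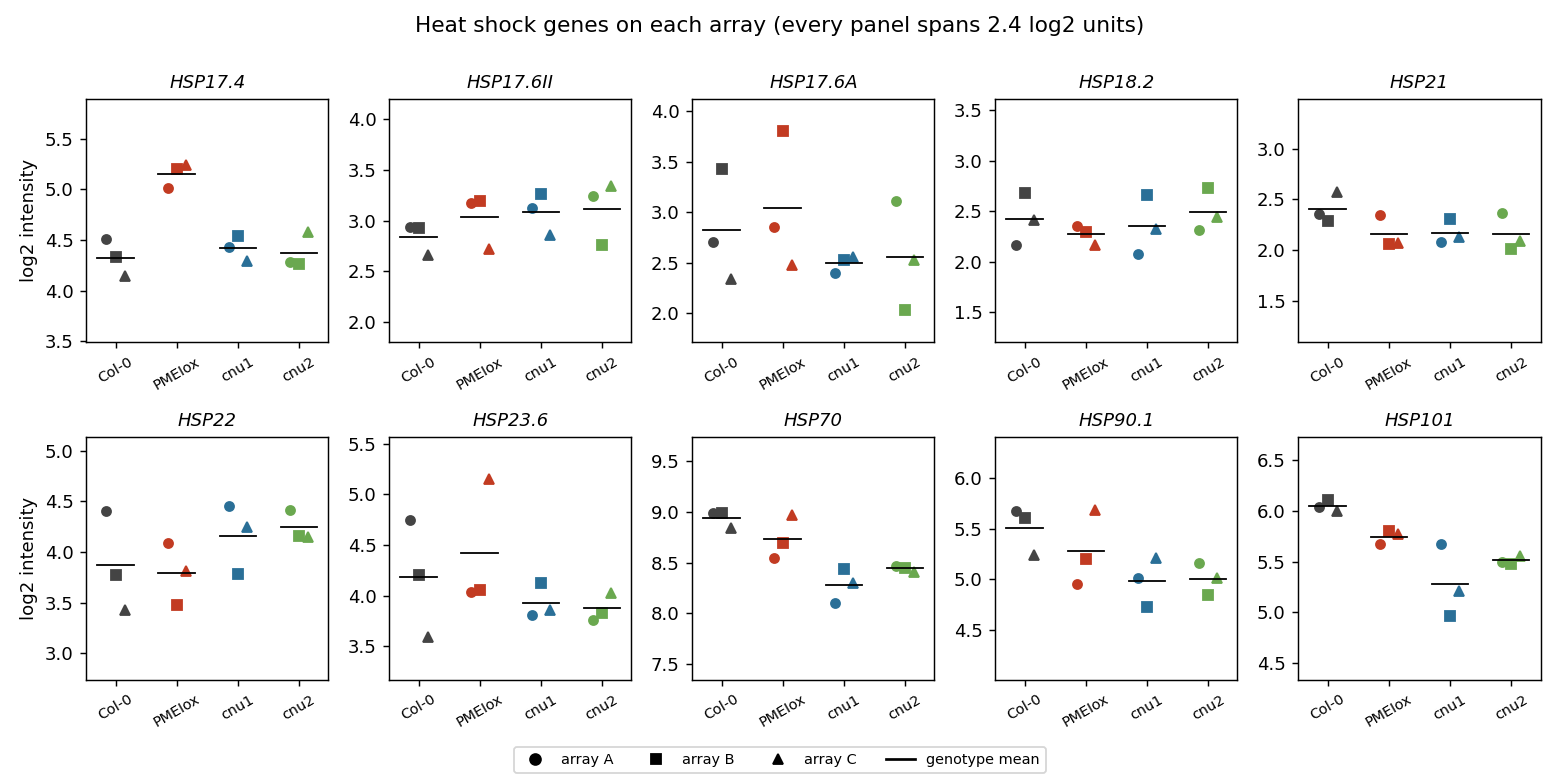
Log2 intensity of each heat shock gene on every array by genotype, with circles, squares and triangles for arrays A, B and C and a line at the mean. HSP17.4 stands at 5.01 to 5.24 on the PMEIox arrays and at 4.14 to 4.58 on the other 9, while HSP70 and HSP101 are highest in Col-0 by mean.

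HSP70, HSP90.1 and HSP101 are the larger chaperones among the members, and each had its highest mean in Col-0. HSP70, a cytosolic chaperone that refolds proteins with ATP, read 8.99, 8.99 and 8.84 in Col-0, 8.55, 8.69 and 8.97 in PMEIox, 8.10, 8.44 and 8.30 in cnu1 and 8.47, 8.45 and 8.41 in cnu2. Every cnu1 and cnu2 value lay below every value of Col-0 and of PMEIox, and Col-0 and PMEIox overlapped. HSP70 fell in cnu1 against Col-0 by 0.66 ± 0.12 (SE, adjusted p = 0.0339), which is 1.58-fold, and against PMEIox by 0.46 ± 0.12 (SE, adjusted p = 0.0454). In cnu2 the differences were -0.49 ± 0.12 from Col-0 (SE, adjusted p = 0.163) and -0.29 ± 0.12 from PMEIox (SE, adjusted p = 0.243). HSP70 differed by -0.16 between cnu1 and cnu2, with a 95% interval from -0.43 to 0.10, so the suppressors are not shown to differ.

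HSP101, the cytosolic disaggregase needed for acquired thermotolerance, read 6.04, 6.11 and 6.00 in Col-0 and 5.67, 5.80 and 5.77 in PMEIox. It read 5.67, 4.96 and 5.21 in cnu1 and 5.50, 5.48 and 5.56 in cnu2. All 3 Col-0 values lay above the other 9, and the cnu1 arrays were the most spread. HSP101 fell in cnu1 against Col-0 by 0.77 ± 0.14 (SE, adjusted p = 0.0356), which is 1.70-fold. The difference of PMEIox from Col-0 was -0.30 ± 0.14 (SE, adjusted p = 0.289), and that of cnu2 from Col-0 was -0.54 ± 0.14 (SE, adjusted p = 0.186). Between cnu1 and PMEIox it was -0.47 ± 0.14 (SE, adjusted p = 0.0823). That difference moved with single cnu1 arrays. It was -0.66 (adjusted p = 0.00514) without array A, where HSP101 was highest, and -0.31 (adjusted p = 0.251) without array B, where it was lowest.

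HSP90.1, the heat-inducible HSP90 of the cytosol, read 5.68, 5.61 and 5.24 in Col-0, 4.95, 5.20 and 5.69 in PMEIox, 5.01, 4.73 and 5.21 in cnu1 and 5.16, 4.85 and 5.01 in cnu2. The 3 Col-0 values lay above all 6 of the suppressors, and the PMEIox values spanned both ranges. HSP90.1 differed from Col-0 by -0.53 ± 0.19 in cnu1 (SE, adjusted p = 0.23) and by -0.50 ± 0.19 in cnu2 (SE, adjusted p = 0.344), neither of which passed the test.

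The calls of HSP70 and HSP101 in cnu1 did not hold under several other fits. With the replicate letter as a block all 3 ended, at an adjusted p of 0.0508 for HSP70 and 0.0571 for HSP101 against Col-0 and of 0.056 for HSP70 against PMEIox. The replicates were of successive weeks, and whether a letter marks the same week in every genotype is not given in the sources used here. For cnu1 against Col-0, leaving out array A or B of Col-0 or any array of cnu1 ended the HSP70 call (adjusted p from 0.0503 to 0.13). Leaving out any array of Col-0, or array B or C of cnu1, ended the HSP101 call (adjusted p from 0.0695 to 0.168). For cnu1 against PMEIox, the HSP70 call ended without PMEIox B, PMEIox C, cnu1 A or cnu1 C (adjusted p from 0.0857 to 0.163). HSP70 kept its sign in each of these fits, and its difference ran from -0.74 to -0.57 in cnu1 against Col-0. A fit of the compared genotypes alone also ended all 3 calls, with an adjusted p of 0.0989 for HSP70 and 0.172 for HSP101 against Col-0, and 0.119 for HSP70 against PMEIox.

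Counted over the 10 genes, 1 rose and 0 fell in PMEIox against Col-0, while of all loci 2.79% rose and 2.46% fell, 5.25% together. At an unadjusted p under 0.05 there was 1 of the 10, against 18.5% of all loci. In 1 gene, HSP17.4, the 3 PMEIox values lay above the 3 of Col-0 and in 1, HSP101, below, as in 11.6% and 11.3% of all loci. The median difference of the 10 was -0.11, and 6 of the 10 lay below 0, while the median of all loci lay between -0.00488 and 0.00293 in the 6 comparisons.

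Against PMEIox, 0 of the 10 rose and 2 fell in cnu1, where 3.54% of all loci rose and 2.9% fell, 6.44% together. At an unadjusted p under 0.05 there were 3 of the 10, against 19.6% of all loci. The 3 cnu1 values lay above the 3 of PMEIox in 0 of the 10 and below in 3, namely HSP17.4, HSP70 and HSP101, as in 13.1% and 12.9% of all loci. The median of the 10 was -0.38. In cnu2 0 rose and 1 fell against PMEIox, where 1.78% of all loci rose and 1.48% fell, 3.25% together. Here 2 of the 10 had an unadjusted p under 0.05, against 16.8% of all loci. The cnu2 values lay above in 1 of the 10, HSP22, and below in 4, namely HSP17.4, HSP23.6, HSP70 and HSP101, as in 11.2% and 11.4% of all loci. The median was -0.25.

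Against Col-0, 0 of the 10 rose and 2 fell in cnu1, where 0.359% of all loci rose and 0.262% fell, 0.622% together. In cnu2 limma called 0 of the 10, where 0.108% of all loci rose and 0.0791% fell, 0.187% together. An unadjusted p under 0.05 was found for 3 of the 10 in cnu1, against 13.9% of all loci, and for 3 of the 10 in cnu2, against 11.3%. With trend and robust settings in eBayes HSP70 was called there (adjusted p = 0.0361). The 3 values of HSP70, HSP90.1 and HSP101 lay below all 3 of Col-0 in cnu1 and likewise in cnu2, and those of 0 genes lay above. Of all loci 9.54% lay below and 10.1% above in cnu1, and 7.99% below and 7.54% above in cnu2. The medians were -0.24 and -0.26, and both comparisons share the Col-0 arrays.

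Between cnu1 and cnu2 limma called 0 of the 10, where 0.377% of all loci rose and 0.19% fell, 0.568% together. At an unadjusted p under 0.05 there were 0 of the 10, against 8.55% of all loci. The cnu1 values lay above those of cnu2 in 0 of the 10 and below in 0, as in 6.92% and 6.3% of all loci. The 10 differences between the suppressors lay from -0.23 to 0.06. The limma F test over the 4 genotypes called HSP17.4 (adjusted p = 0.00453), HSP70 (adjusted p = 0.0203) and HSP101 (adjusted p = 0.0278), that is 3 of 10, where 6.02% of all loci were called.

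**Figure D2:**
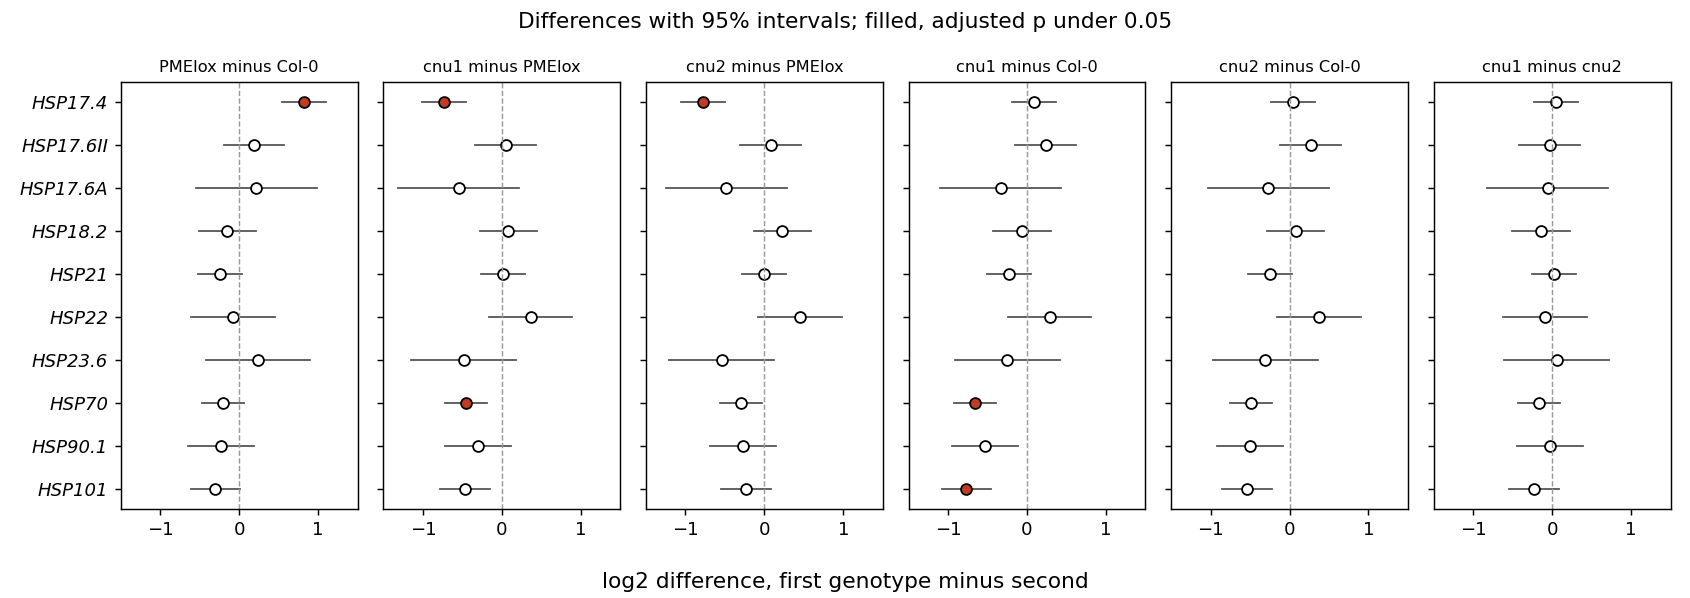
Log2 differences of the 10 genes in the 6 comparisons, with bars for 95% intervals and filled points for an adjusted p under 0.05. HSP17.4 is at 0.83 in PMEIox against Col-0 and at -0.73 and -0.78 in the suppressors against PMEIox, and the 10 intervals of cnu1 against cnu2 all include 0.

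The counts of further genes below are read against the same shares of all loci, which at an unadjusted p under 0.05 were 18.5% in PMEIox against Col-0, 19.6% in cnu1 and 16.8% in cnu2 against PMEIox, 13.9% in cnu1 and 11.3% in cnu2 against Col-0, and 8.55% between the suppressors. Heat shock factors, the transcription factors that act on these genes, were measured at 21 loci. In PMEIox against Col-0 0 rose and 1 fell, where 2.79% of all loci rose and 2.46% fell. The median was 0.03, and 3 of 21 had an unadjusted p under 0.05. HSFC1, a class C factor, fell by 0.65 ± 0.16 (SE, adjusted p = 0.0369), from 6.15, 6.17 and 5.62 in Col-0 to 5.27, 5.50 and 5.24 in PMEIox. Its call ended in 5 of the 6 fits that left out an array, all but that without Col-0 C, with an adjusted p of up to 0.138. In cnu1 against PMEIox 1 rose and 1 fell, where 3.54% of all loci rose and 2.9% fell. The called genes were HSFA4A at 0.40 ± 0.11 (SE, adjusted p = 0.0428) and HSFA9 at -0.52 ± 0.14 (SE, adjusted p = 0.0465). Both calls ended whichever of the 6 arrays was left out. HSFA9, the factor of maturing seeds, read 3.48, 3.26 and 3.53 in Col-0, 3.54, 3.83 and 3.59 in PMEIox, 3.21, 3.01 and 3.19 in cnu1 and 3.58, 3.08 and 3.18 in cnu2. The PMEIox values of HSFA9 lay above the 3 of Col-0, with a difference of 0.23 ± 0.14 (SE, adjusted p = 0.419). Of the 21 factors, 2 lay above Col-0 in this way and 6 below, where 11.6% and 11.3% of all loci did.

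The other factors set down by name did not pass the test in any of the 6 comparisons. HSFA1A, a master activator of the heat response, had group means between 6.76 and 6.90. HSFA2, which prolongs the response and is itself heat-induced, had group means between 1.92 and 2.28 and lay above 5.65% of the loci. HSFB1, a repressor induced with the response, had means of 6.46 in Col-0, 6.34 in PMEIox, 6.64 in cnu1 and 6.69 in cnu2. The PMEIox values of HSFB1 lay below the 3 of Col-0, with a difference of -0.125 ± 0.11 (SE, adjusted p = 0.605). Its difference between cnu2 and PMEIox was 0.35 ± 0.11 (SE, adjusted p = 0.109). In the other 4 comparisons limma called 0 of the 21 factors. At an unadjusted p under 0.05 there were 7 of 21 in cnu2 against PMEIox, where all loci gave 16.8%. There were 3 in cnu1 and 3 in cnu2 against Col-0 and 2 between the suppressors, near the 13.9%, 11.3% and 8.55% of all loci.

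Further HSP70, HSP90 and ClpB genes numbered 16. In PMEIox against Col-0 1 rose and 0 fell, where 2.79% of all loci rose and 2.46% fell, with a median of 0.10. An unadjusted p under 0.05 was found for 5, of which 4 were higher and 1 lower, against 18.5% of all loci. HSP90.6, the mitochondrial HSP90, read 7.71, 7.58 and 7.63 in Col-0, 8.18, 8.02 and 8.06 in PMEIox, 7.76, 7.58 and 7.63 in cnu1 and 7.73, 7.62 and 7.74 in cnu2. All 3 PMEIox values lay above the other 9, as for HSP17.4. HSP90.6 rose in PMEIox by 0.45 ± 0.09 (SE, adjusted p = 0.0122), and it was lower in cnu1 by -0.43 ± 0.09 (SE, adjusted p = 0.0129) and in cnu2 by -0.39 ± 0.09 (SE, adjusted p = 0.0378) than in PMEIox. Leaving out array B of Col-0 moved the rise to an adjusted p of 0.0537, and leaving out array A of PMEIox to 0.0588. The call in cnu1 ended without PMEIox A, cnu1 B or cnu1 C (adjusted p up to 0.0606), and that in cnu2 whichever array was left out (adjusted p up to 0.136).

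In cnu1 against PMEIox 0 of these 16 rose and 3 fell, where 3.54% of all loci rose and 2.9% fell. In cnu2 against PMEIox 0 rose and 2 fell, where 1.78% rose and 1.48% fell. The medians were -0.18 and -0.18. At an unadjusted p under 0.05 there were 7 of 16 in cnu1, of which 6 were lower, against 19.6% of all loci, and 8 of 16 in cnu2, of which 7 were lower, against 16.8%. HSP90.5, the plastid HSP90, was lower by -0.66 ± 0.13 in cnu1 (SE, adjusted p = 0.0112) and by -0.60 ± 0.13 in cnu2 (SE, adjusted p = 0.0344). It read 8.35, 8.14 and 8.30 in PMEIox and from 7.42 to 7.87 in the suppressors, with no overlap. The cnu1 call ended without PMEIox A (adjusted p = 0.0514) or cnu1 C (adjusted p = 0.0554). The cnu2 call held only without cnu2 C (adjusted p = 0.0286) among the 6 fits that left out an array. The plastid HSP70 gene cpHSC70-1 fell in cnu1 by 0.50 ± 0.13 (SE, adjusted p = 0.0386), a call that ended whichever array was left out (adjusted p from 0.0501 to 0.146).

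Against Col-0, 0 of the 16 rose and 1 fell in cnu1, where 0.359% of all loci rose and 0.262% fell. At an unadjusted p under 0.05 there were 4, against 13.9% of all loci. The called gene was CLPB3, the plastid relative of HSP101, which fell by 0.55 ± 0.10 (SE, adjusted p = 0.0264). CLPB3 read 7.38, 7.39 and 7.26 in Col-0, 7.06, 7.08 and 7.26 in PMEIox, 6.80, 6.89 and 6.68 in cnu1 and 7.09, 6.96 and 6.93 in cnu2. The cnu1 values were the lowest on the 12 arrays, and the call ended in 5 of the 6 fits that left out an array, with an adjusted p from 0.0507 to 0.131, and held without Col-0 C (adjusted p = 0.0385). In cnu2 against Col-0, and in cnu1 against cnu2, limma called 0 of the 16, while 3 and 0 of them had an unadjusted p under 0.05.

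Heat-induced partners and targets of the response were measured at 11 loci, among them the co-chaperone HOP3, the coactivator MBF1C and HSA32, which sustains thermotolerance. Limma called 0 of the 11 in each of the 6 comparisons. In PMEIox against Col-0 0 had an unadjusted p under 0.05, and the median was -0.06. In cnu1 against PMEIox 2 of 11 did, 0 higher and 2 lower, near the 19.6% of all loci (median -0.16). In cnu1 against Col-0 4 of 11 did, 0 higher and 4 lower, where all loci gave 13.9% (median -0.22). The counts were 0 for cnu2 against PMEIox, 2 for cnu2 against Col-0 and 1 for cnu1 against cnu2. These were also lower in the genotype named first.

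Genes of ER folding and of the unfolded protein response were measured at 11 loci. In PMEIox against Col-0 2 rose and 0 fell, where 2.79% of all loci rose and 2.46% fell, with a median of 0.28. Of the 7 with an unadjusted p under 0.05, 5 were higher and 2 lower, against 18.5% of all loci in either direction. PDIL1-1, a disulfide isomerase, rose by 0.42 ± 0.09 (SE, adjusted p = 0.0169), from 7.58, 7.65 and 7.68 to 8.19, 8.07 and 7.92. SDF2, an ER quality control protein, rose by 0.32 ± 0.08 (SE, adjusted p = 0.0474). The PDIL1-1 call ended when array A or B of either genotype was left out (adjusted p up to 0.0761), and the SDF2 call whichever array was left out (adjusted p from 0.0824 to 0.154). In cnu1 against PMEIox 0 rose and 1 fell (2 at an unadjusted p under 0.05), where 3.54% of all loci rose and 2.9% fell. The called gene was PDIL1-1 at -0.33 ± 0.09 (SE, adjusted p = 0.0494). Its call ended in 5 of the 6 fits that left out an array (adjusted p up to 0.171) and held without PMEIox C (adjusted p = 0.0389). In the other 4 comparisons limma called 0 of the 11, with 4, 3, 2 and 1 at an unadjusted p under 0.05 for cnu2 against PMEIox, cnu1 and cnu2 against Col-0 and cnu1 against cnu2.

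**Figure D3:**
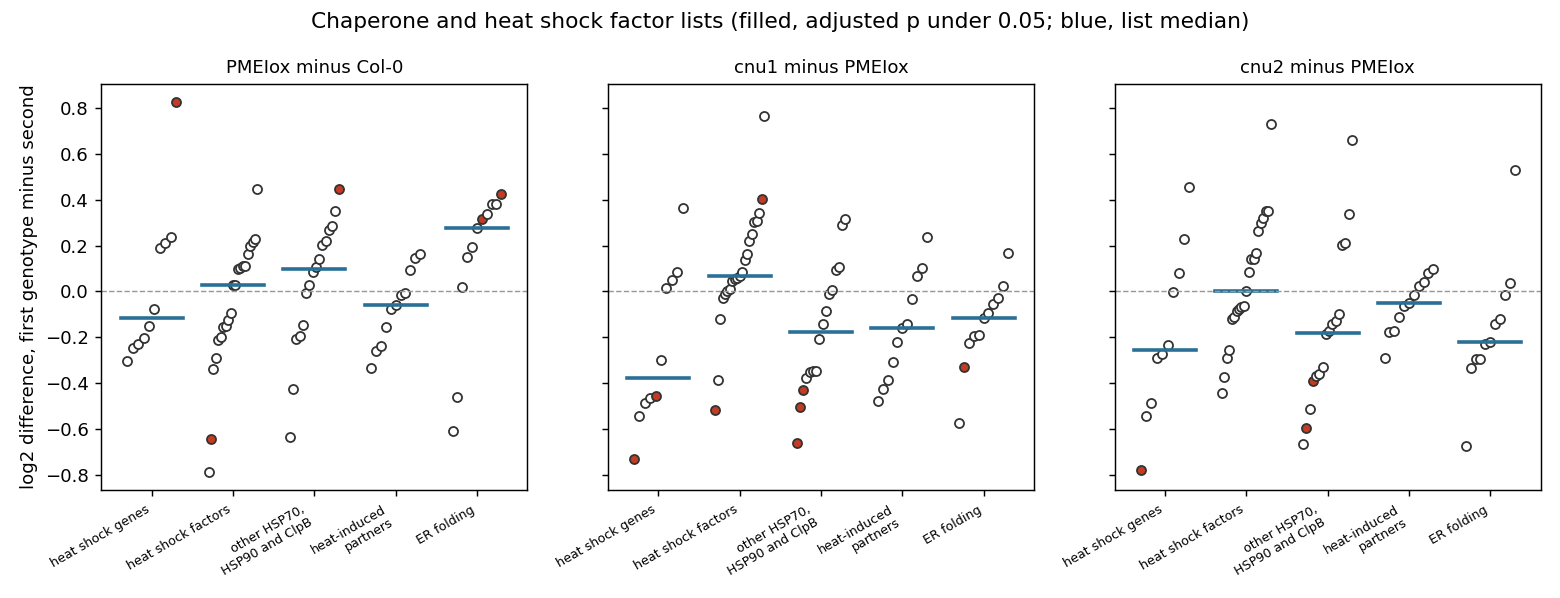
Log2 difference of every gene in 5 lists for PMEIox against Col-0 and for both suppressors against PMEIox, with filled points for an adjusted p under 0.05 and a blue line at the list median. The 10 heat shock genes have medians of -0.11, -0.38 and -0.25, and HSP17.4 is the highest point of its list in the first panel and the lowest in the other panels.

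Most seed maturation markers moved in the 3 comparisons in which HSP17.4 was called. No other member was called in all 3 of them. In PMEIox against Col-0 the differences of the other members ran from -0.30 for HSP101 to 0.24 for HSP23.6, with none called. HSP70 was called lower in cnu1 against PMEIox. HSP23.6 (0.24, -0.48 and -0.54) and HSP17.6A (0.21, -0.54 and -0.48) had the signs of HSP17.4 in the 3 comparisons, without a call. Their differences from Col-0 changed sign in some fits that left out an array. The remaining members did not have these 3 signs. Of 14 markers, 12 rose and 0 fell in PMEIox against Col-0 (median 2.09), where 2.79% of all loci rose and 2.46% fell. In cnu1 against PMEIox 0 rose and 12 fell (median -2.13), where 3.54% of all loci rose and 2.9% fell. In cnu2 against PMEIox 0 rose and 10 fell (median -1.78), where 1.78% of all loci rose and 1.48% fell. Like all lists here, the markers were chosen with earlier results of these data known. The smallest adjusted p in PMEIox against Col-0 was that of SESA3, a storage albumin gene, which rose in PMEIox by 3.49 ± 0.19 (SE, adjusted p = 2.64e-06). It was followed by the storage albumin genes SESA1 at 3.37 and SESA5 at 2.69 and by the oleosin gene OLEO1 at 1.95. These 4 genes were lower in the suppressors than in PMEIox, SESA3 by -3.86 and -3.51, SESA1 by -3.26 and -3.37, SESA5 by -3.28 and -2.67 and OLEO1 by -2.07 and -1.73 (cnu1 and cnu2, limma, adjusted p of at most 0.000116). Against Col-0 limma called 1 of the 14 in cnu1 and 0 in cnu2. At an unadjusted p under 0.05 there were 4 in cnu1, 2 higher and 2 lower, and 2 in cnu2, 1 higher and 1 lower. The differences ran from -0.96 to 1.58 in cnu1 and from -0.43 to 1.34 in cnu2. Between cnu1 and cnu2 limma called 0 of the 14 (median -0.26). There 5 had an unadjusted p under 0.05, 1 higher and 4 lower in cnu1, against 8.55% of all loci. CRA1, a storage cruciferin gene, had means of 6.86 in Col-0, 8.44 in cnu1 and 8.20 in cnu2. Its arrays were widely spread, from 6.77 to 9.78 in cnu1 and from 6.65 to 9.24 in cnu2. The call in cnu1 against Col-0 was SESA4, another storage albumin gene, which was lower by -0.96 ± 0.16 (SE, adjusted p = 0.0216). HSP17.4 differed there by 0.09. The SESA4 call ended in 4 of the 6 fits that left out an array (adjusted p up to 0.0896). Summed on the linear scale, the 14 intensities lay between 774 and 875 on the Col-0 arrays, between 4910 and 6090 on the PMEIox arrays, between 771 and 1730 in cnu1 and between 751 and 1690 in cnu2. No marker was at 0, since the table holds log2 intensities with no detection calls. The rise of HSP17.4, at 0.83, was smaller than the median of these markers, and their part in it was not tested. Array C of cnu2 had the highest HSP17.4 value of the suppressors, 4.58, and the highest median of the markers among them, 6.12. Within cnu1 array B had the highest HSP17.4 value, 4.54, and the lowest median of the markers, 5.12.

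**Figure D4:**
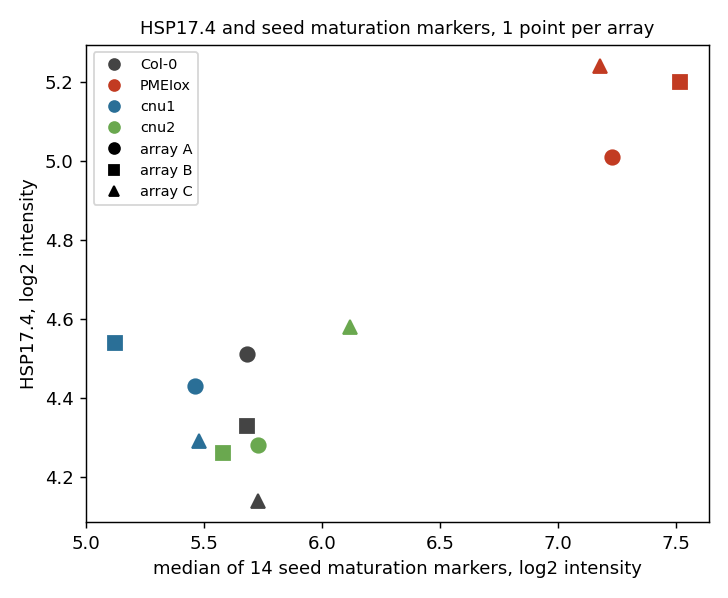
HSP17.4 on each array against the median of the 14 seed maturation markers, both in log2 intensity, coloured by genotype. The 3 PMEIox arrays lie at marker medians of 7.18 to 7.52 and HSP17.4 values of 5.01 to 5.24, apart from the other 9 arrays at 5.12 to 6.12 and 4.14 to 4.58.

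Among the 27817 loci outside the 10, those whose values followed a member most closely over the 12 arrays were found by Pearson's r, as a description. The arrays fall into 4 genotypes, so a shared genotype difference alone gives a high r. Closest to HSP17.4 was PDF1.4 (AT1G19610), a defensin gene, at r = 0.983, which read 4.63, 4.33 and 3.83 in Col-0 and 5.62, 5.92 and 5.94 in PMEIox. AT4G30660 followed at r = 0.974 and AT5G38370 at 0.957. Closest to HSP70 were LEA14 (AT1G01470), a gene of the late embryogenesis abundant type, at r = 0.955, CLPB3 at 0.937 and AT1G20070 at 0.919. LEA14 read 7.85, 7.97 and 7.66 in Col-0 and 6.77, 6.83 and 6.74 in cnu1. Closest to HSP101 were AT2G31790 at r = 0.943, AT2G20710 at 0.928 and AT1G06240 at 0.915. For the other 7 members the best r ran from 0.879 for HSP18.2 to 0.942 for HSP17.6A. Each best r is the largest of 27817 over 12 arrays, and how large it would be for unrelated values was not tested.

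Within the 10, HSP70 and HSP90.1 correlated at r = 0.792 over the 12 arrays, HSP90.1 and HSP101 at 0.711 and HSP70 and HSP101 at 0.703. HSP17.4 correlated with the 3 at 0.252, 0.175 and 0.098 (HSP70, HSP90.1 and HSP101). HSP23.6 correlated at 0.602 with HSP17.4 and at 0.663 with HSP90.1. The lowest r of any pair was -0.485, between HSP22 and HSP70.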

How the data were processed

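RNA from whole dark-grown seedlings was labelled as biotinylated cRNA by the Affymetrix protocol, per the labels' protocols. The deposited table gives 1 value per locus and array, read here as log2 intensity from its range of 0.785 to 13.9. The log base, array type, background correction, probe summary and software are not given in the sources used here, and the sorted values of the 12 arrays are identical, so the authors gave the arrays a common distribution. That leaves no detection calls and no measure of depth, and the number of arrays limits the precision.

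The table was fitted with limma 3.58.1 in R 4.3.3 (group means of all 12 arrays, eBayes, two-sided tests, Benjamini-Hochberg adjustment over 27827 loci, threshold 0.05). Figures were drawn with matplotlib 3.10.9, and the fit was tested on simulated data. Gene names came from a RefSeq table of assembly TAIR10.1, which held 27241 of the loci. No sequences were used here, and coordinates served only to find neighbouring genes. Genes of the lists without a name there are not reported, which left 16 of 17 further HSP70, HSP90 and ClpB genes.

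The 10 members and all lists were chosen with earlier results of these data known. Named were all 10 members, up to 4 called genes per list and comparison by smallest adjusted p, HSFA1A, HSFA2, HSFA9 and HSFB1, the genes of the genotypes, and the loci closest to a member by Pearson's r. The labels do not tie the letters A, B and C to a week. Deviations of same-letter arrays correlated between -0.137 and 0.19, so the letters were not taken as pairs, except in cnu2 against Col-0 (0.1, 0.137 and 0.173), where the block changed no call of a member. Weak as these values were, the mean correlation was highest with the array's own letter for 10 of 12 arrays. An effect shared by a letter was fitted only in the replicate block. The alternatives were quantile normalization, centring on 10 reference genes, leaving out the lowest 40% of loci, robust eBayes with an intensity trend (through statmod 1.5.0), weighting of arrays, a fit of 2 genotypes, a replicate block, a minimum fold of 2 and leaving out each array.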

Additional observations from a re-analysis of the deposited data

How the results depend on the processing

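Quantile normalization left every value as it was. The calls of HSP17.4 in PMEIox against Col-0 and in both suppressors against PMEIox held under every alternative that tested it, except a minimum fold of 2. With that minimum, 0 of the 10 genes were called in PMEIox against Col-0, 0 in cnu1 and 0 in cnu2 against PMEIox and 0 in cnu1 against Col-0, and in the other lists together 10 were called in cnu1 against PMEIox (18 without it) and 0 in cnu1 against Col-0. Leaving out the lowest loci removed HSP17.4 and left 3 of the 10 genes, of which 0 were called in PMEIox against Col-0 and 0 in cnu2 against PMEIox. With the replicate block 1 of the 10 was called in cnu1 against PMEIox and 0 in cnu1 against Col-0, where HSP70 had an adjusted p of 0.056 and 0.0508 and HSP101 of 0.0571 against Col-0. The block changed no other call of the 10 genes. For 10 of 12 arrays, deviations from the genotype mean correlated most, on average, with same-letter arrays of the other genotypes. With only the compared genotypes 1 was called in cnu1 against PMEIox and 0 against Col-0, and 0 of the other lists against Col-0. Array weights left 1 call in cnu1 against Col-0. In the other lists 4 genes were called there without the lowest loci and 4 with trend and robust settings, which also gave 1 member in cnu2 against Col-0. As arrays were left out, the members called ran from 1 to 2 in cnu1 against PMEIox, from 0 to 1 in cnu1 against Col-0 and from 1 to 3 in the F test, and the other lists from 11 to 13 and from 0 to 3 in the same 2 comparisons.

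Over the results recomputed without 1 array, 531 kept their direction and their side of the threshold, 79 lost a call, 1 gained one and 43 changed sign. Under the other alternatives these numbers were 754, 48, 3 and 10. The 754 include the results under quantile normalization, which changed no value and so could not move any of them. No called difference changed sign. With array weights HSP21 was 0.045 in cnu2 against PMEIox and -0.039 in cnu1 against cnu2, HSP17.4 -0.021 in cnu2 against Col-0 and HSFB1 0.021 in cnu1 against cnu2. Centred on the reference genes, HSP17.4 was -0.041, HSP18.2 -0.010 and HSFA1A -0.056 in cnu2 against Col-0, and HSP17.6II was 0.020, HSP90.1 0.023 and HSFB1 0.0047 in cnu1 against cnu2. The following ranges are over single arrays left out. In PMEIox against Col-0 HSP17.6A ran from -0.17 to 0.52, HSP22 from -0.30 to 0.19 and HSP23.6 from -0.13 to 0.52. In cnu1 against PMEIox HSP17.6II ran from -0.10 to 0.16, HSP18.2 from -0.066 to 0.22, HSP21 from -0.054 to 0.11 and HSFA2 from -0.044 to 0.17. In cnu2 against PMEIox HSP17.6II ran from -0.075 to 0.26 and HSP21 from -0.11 to 0.092. In cnu1 against Col-0 HSP18.2 ran from -0.22 to 0.071 and HSP23.6 from -0.54 to 0.035. In cnu2 against Col-0 HSP17.4 ran from -0.056 to 0.14, HSP17.6A from -0.55 to 0.031, HSP18.2 from -0.047 to 0.21 and HSFA1A from -0.0046 to 0.092. In cnu1 against cnu2 HSP17.4 ran from -0.011 to 0.15, HSP17.6II from -0.21 to 0.081, HSP17.6A from -0.32 to 0.22, HSP21 from -0.053 to 0.12, HSP22 from -0.23 to 0.10, HSP23.6 from -0.037 to 0.14, HSP90.1 from -0.14 to 0.10, HSFA9 from -0.24 to 0.0015 and HSFB1 from -0.15 to 0.055. Apart from construction (fewer loci or arrays), the cause was not tested.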
